A study of Mus musculus with 6 samples.

Results

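The TNF superfamily of ligands and receptors was followed across the nucleus types of mouse subcutaneous white adipose tissue and between control mice and mice with Gpsm1 deleted in regulatory T cells (Treg cells). Its members were taken by gene symbol: every symbol that starts with Tnfsf or Tnfrsf, together with Tnf, Fas, Fasl, Cd40, Cd40lg, Cd27 and Cd70. This gave 39 of the 32285 genes in the files, including Tnfsf13os, an RNA antisense to Tnfsf13. Ligands of this superfamily are mostly trimeric membrane proteins, some of them released by proteases, and they bind receptors that signal through TRAF adaptors to NF-kB and MAP kinases or through death domains to caspases. In immune cells many of the pairs are costimulatory (CD27 with CD70, 4-1BB with its ligand, OX40 and GITR with theirs), while BAFF and its receptor keep B cells alive. In adipose tissue TNF made by myeloid cells is known for blunting insulin action, and OX40, GITR and 4-1BB are well known on Treg cells.

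The nuclei came from mice that entered the diet protocol at 7 weeks of age. The sample labels give 12 weeks of high-fat feeding, and the protocol text gives a span of 5 to 12 weeks. Flox control libraries (n = 3) were from GPSM1f/f mice, and Treg knockout libraries (n = 3) were from GPSM1ΔTreg mice. By their names both groups carry the floxed gene, and the deletion is in Treg cells alone. The sources used here do not give the Cre line, its promoter or the deleted exons. The labels give 3 mice per genotype and do not tie a library to a mouse, so p-values measure the spread between libraries.

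The libraries held 38857282 to 55342903 unique molecular identifiers (UMIs) in 10314 to 11480 barcodes, and all 3 controls were deeper than all 3 knockouts. Filtering kept 56226 of 65162 nuclei, which were clustered without the members among the clustering genes and put into classes by marker lists. Pairs of libraries shared 24 to 44 barcodes. In each class UMIs were summed per library, and a level is given in CPM, the gene's UMIs per 1000000 UMIs of that class and library. In whole-tissue sums Gpsm1, the targeted gene, was at 27.1, 30.9 and 24.0 CPM in the controls against 38.3, 38.4 and 33.8 CPM in the knockouts (log2 difference 0.34, adjusted p = 0.122). In T-cell-like nuclei it was at 31.1, 46.9 and 16.6 against 21.0, 15.6 and 19.8 CPM, so its counts do not separate the labelled groups there. The makeup of the libraries differed widely: B-cell-like nuclei were 2.02, 1.03 and 5.05% of control 1, 2 and 3 and 38.3, 12.3 and 19.1% of knockout 1, 2 and 3. T-cell-like nuclei were 0.922 to 1.63% of the controls and 3.55 to 11.4% of the knockouts. Lymphoid stroma-like nuclei numbered 0, 0 and 8 in the controls against 142, 27 and 75 in the knockouts. The labels do not say whether a lymph node was taken with the fat, so more lymphocytes in the fat and more lymph node in the sample cannot be told apart here. Control 3 stood apart by an adipocyte-like cluster that held 57.8% of its adipocyte-like nuclei and 0.72 to 8.41% of those of the other libraries.

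Most members were highest in an immune or vascular class, and most of the classes ranked were of these kinds. Of the 39, 32 had at least 200 UMIs and were given a leading class, the class with the highest mean level over the 6 libraries. T-cell-like nuclei led for 9 members, endothelial-like for 6, monocyte-like for 5, B-cell-like for 3, and adipose stem and progenitor cell (ASPC)-like, NK-cell-like, dendritic-cell-like and macrophage-like nuclei for 2 each, with mural-like nuclei leading for 1. In 11 members the leading class was above the next class in all 6 libraries, and in 10 the ranges of both classes over the libraries did not overlap. These counts were not made over all genes, so they describe the members alone and do not set them apart. Cd70, Tnfrsf17, Tnfrsf8, Tnfsf14, Tnfsf15, Tnfsf18 and Tnfsf4 had 4 to 183 UMIs and were not ranked. The levels of different members are not compared with each other.

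**Figure D1:**
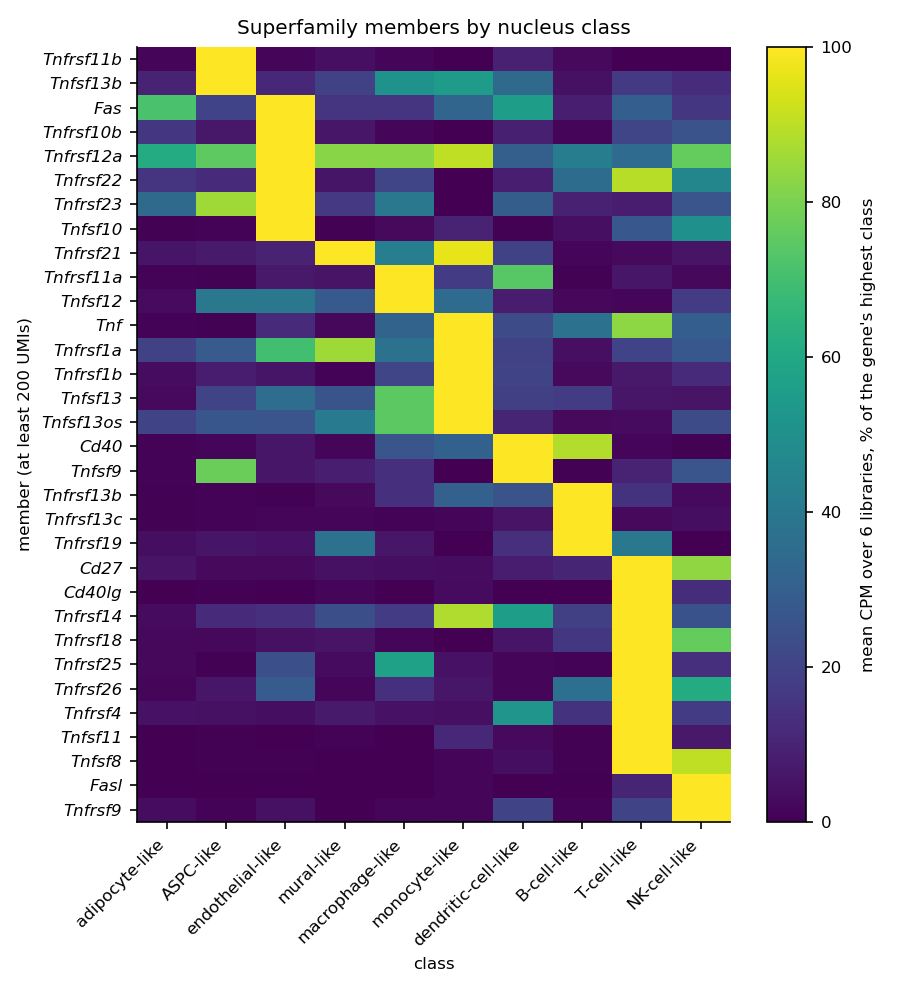
Mean level over 6 libraries of the 32 members with at least 200 UMIs (rows) in 10 nucleus classes (columns), as a percent of the gene's highest class. Bright cells at the right show the members of T-cell-like, NK-cell-like and B-cell-like nuclei, and those in the middle the myeloid and endothelial members.

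Among the ligands, Cd40lg, which helper T cells use to activate B cells, was at 59.2 ± 22.3 CPM (SD, n = 6) in T-cell-like nuclei, 7.6 times its level in NK-cell-like nuclei. Fasl, the death ligand of cytotoxic cells, was at 121.5 ± 76.1 CPM in NK-cell-like nuclei, 9.7 times its level in T-cell-like nuclei, and led there in every library. Tnfsf8, the ligand of CD30, was at 151.5 ± 42.1 CPM in T-cell-like and 137.0 ± 84.9 CPM in NK-cell-like nuclei, whose spreads overlap. Tnf itself was sparse, at 26.6 ± 26.9 CPM in monocyte-like nuclei (range 0 to 71.9) and 22.1 ± 5.0 CPM in T-cell-like nuclei, so no class stood out. Among single clusters it was highest in the T-cell-like cluster led by Cd163l1 and Il23r, at 56.0 CPM from 87 UMIs. The monocyte-like cluster followed at 30.1 CPM from 30 UMIs. Tnfsf10, which encodes the death ligand TRAIL, was at 164 ± 25.0 CPM in endothelial-like nuclei and 82.6 CPM in NK-cell-like nuclei. Tnfsf12, which encodes TWEAK, was highest in macrophage-like nuclei, at 68.8 ± 8.6 CPM against 27.6 CPM in the ASPC-like. Tnfsf13, which encodes APRIL, and its antisense partner Tnfsf13os were at 21.0 and 16.9 CPM in monocyte-like nuclei, and the counts of this pair cannot be told apart if strand was not used. Tnfsf13b, which encodes the B cell survival factor BAFF, led in ASPC-like nuclei in all 6 libraries at 29.2 ± 4.6 CPM, with 16.0 CPM in the monocyte-like and 14.97 CPM in the macrophage-like. Tnfsf9, the ligand of 4-1BB, was low everywhere, at 6.7 CPM in dendritic-cell-like and 5.2 CPM in ASPC-like nuclei.

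Tnfsf11, which encodes RANK ligand, came largely from a small cluster. Over the classes with enough nuclei it led in T-cell-like nuclei, at 33.3 ± 5.8 CPM. The 252 lymphoid stroma-like nuclei, a class too unevenly filled to test, held 318 of its 547 UMIs at 319.9 CPM. The same cluster had Tnfsf13b at 269.6 CPM from 268 UMIs. In the controls 42.0% of the 50 Tnfsf11 UMIs came from T-cell-like and 26.0% from lymphoid stroma-like nuclei, and in the knockouts 23.9% and 61.4% of 497.

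Among the lymphocyte receptors, Cd27, the costimulatory receptor of CD70, was at 226 ± 59.6 CPM in T-cell-like nuclei (145.9 to 303.6), 188.7 ± 81.4 CPM in the NK-cell-like and 23.7 CPM in the B-cell-like. Tnfrsf13c, the BAFF receptor, was the most restricted of these, at 131.9 ± 18.9 CPM in B-cell-like nuclei and 19.2 times the next class. Tnfrsf13b, which encodes TACI, was at 146.9 ± 20.1 CPM in B-cell-like and 45.1 CPM in monocyte-like nuclei. A dendritic-cell-like cluster led by Grm8 and Siglech, with only 77 nuclei, had it at 170.4 CPM from 38 UMIs. The largest B-cell-like cluster had it at 135.8 CPM. Tnfrsf17, which encodes the plasma cell receptor BCMA, was an exception, since 140 of its 181 UMIs lay in the macrophage-like cluster led by Cd163 and Mrc1. Tnfrsf25, which encodes the receptor of TL1A, was at 61.1 ± 20.2 CPM in T-cell-like and 35.0 ± 8.7 CPM in macrophage-like nuclei. Tnfrsf26, which lies beside Tnfrsf22 and Tnfrsf23 on chromosome 7, was at 92.8 ± 21.2 CPM in T-cell-like and 57.0 CPM in NK-cell-like nuclei. Tnfrsf14, the receptor of LIGHT, was at only 8.9 ± 8.2 CPM in T-cell-like nuclei. Tnfrsf9, which encodes 4-1BB, was at 87.8 ± 67.0 CPM in NK-cell-like nuclei (20.2 to 202.4) and 18.2 ± 13.3 CPM in the T-cell-like.

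In myeloid nuclei, Tnfrsf1b, which encodes TNF receptor 2, was at 691 ± 77.5 CPM in the monocyte-like class (550.8 to 767.4), 4.8 times the 144.9 ± 7.1 CPM of the macrophage-like. Tnfrsf1a, the broadly expressed TNF receptor 1, was at 135 ± 19.1 CPM in monocyte-like, 115.8 CPM in mural-like and 94.0 CPM in endothelial-like nuclei, and lowest of the tested classes in B-cell-like nuclei at 5.44 CPM. Tnfrsf11a, which encodes RANK, was at 347 ± 42.6 CPM in macrophage-like and 256.8 ± 111.5 CPM in dendritic-cell-like nuclei. Within the macrophage-like class it was at 529.5 CPM in the cluster led by Trem2 and Gpnmb, genes of lipid-associated macrophages. Cd40, the receptor of CD40 ligand on antigen-presenting cells, was at 152 ± 127 CPM in dendritic-cell-like and 134.7 ± 26.5 CPM in B-cell-like nuclei. The dendritic cluster led by Ccl22 and Fscn1, with 230 nuclei, had Cd40 at 480.9, Tnfrsf11a at 675.0 and Tnfrsf1b at 432.6 CPM, and 3 of the 4 UMIs of Cd70 in the whole series.

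In vascular and adipose nuclei, Fas, the death receptor, was at 162 ± 48.4 CPM in endothelial-like and 115.5 ± 16.5 CPM in adipocyte-like nuclei. Tnfrsf10b, the mouse TRAIL receptor, was at 37.5 ± 9.2 CPM in endothelial-like nuclei. Tnfrsf22 and Tnfrsf23, decoy receptors of TRAIL, were at 14.9 and 9.8 CPM in the same class, and Tnfrsf12a, the TWEAK receptor Fn14, at 8.0 ± 1.5 CPM. Tnfrsf21, which encodes death receptor 6, was at 250.6 ± 51.3 CPM in mural-like and 241.6 ± 40.1 CPM in monocyte-like nuclei. A cluster led by Fcrls, Lyz1 and Retnla, which got no class name and was not ranked, had it at 328.3 CPM from 940 UMIs. Tnfrsf11b, the decoy receptor osteoprotegerin, was at 7.4 ± 3.0 CPM in ASPC-like nuclei, 11.1 times the next class. Tnfrsf19, which encodes TROY, was at 97.6 CPM in a skeletal muscle-like cluster with 61 of its 229 UMIs, while its highest tested class, the B-cell-like, was at 2.8 CPM.

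The split between lymphocyte lineages was tested in a fit with the library as a block. All 16 members tested differed between T-cell-like and B-cell-like nuclei (edgeR quasi-likelihood, adjusted p under 0.05), where 44.7% of the 8180 genes tested did. Of these 13 were higher in T-cell-like nuclei (24.6% of all genes) and 3 in B-cell-like nuclei (20.2%). Several of them entered the test through the class where they are high: in B-cell-like nuclei Cd40lg was at 0.19, Tnfsf11 at 0.20, Tnfrsf25 at 0.61 and Tnfsf8 at 0.88 CPM, and in T-cell-like nuclei Cd40 at 2.91 and Tnfrsf13c at 3.18 CPM. The filter on low counts therefore sets much of that count, and the values are given as a description. The log2 difference was 7.38 ± 0.35 (SE) for Cd40lg, 6.93 for Tnfsf8, 5.77 for Tnfrsf25, 5.68 for Tnfsf11 and 3.38 ± 0.15 for Cd27. Tnfrsf4, Tnfrsf18, Tnfsf10, Tnfrsf1a, Fas, Tnfrsf1b, Tnfrsf26 and Tnf followed at 2.84 to 1.24. The members higher in B-cell-like nuclei were Cd40 at -5.15 ± 0.21, Tnfrsf13c at -5.03 and Tnfrsf13b at -2.70.

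Between the main adipose lineages, 15 of the 25 members tested differed, and 76.6% of the 15349 genes did. ASPC-like nuclei were higher for 11 members (37.3% of all genes). These were Tnfsf18 (log2 difference 6.77), the ligand of GITR, then Tnfrsf11b (6.05), Tnfsf9 (5.80), Tnfsf12 (3.90), Tnfsf13b (3.30), Tnfsf13 (3.02), Tnfsf4 (2.93), the ligand of OX40, and Tnfrsf26, Tnfrsf1b, Tnfrsf23 and Tnfrsf1a (1.95 to 0.46). Several entered the test through ASPC-like nuclei, where they are high. In adipocyte-like nuclei Tnfsf18 was at 0.016, Tnfsf9 at 0.076, Tnfrsf11b at 0.095, Tnfsf4 at 0.21 and Tnfsf13 at 0.54 CPM. The filter on low counts therefore sets much of that count, and the values are given as a description. Adipocyte-like nuclei were higher for 4 members (39.3% of all genes). Fas stood at 115 ± 17 CPM in adipocyte-like against 32.4 ± 3.9 CPM in ASPC-like nuclei (log2 -1.92 ± 0.06), and Tnfrsf9 (-1.70), Tnfrsf10b (-1.43) and Cd27 (-1.29) were the others. Cd27 and Tnfrsf9 overlap Vamp1 and Camta1 on the opposite strand, and the sources used here do not say whether counting used strand.

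Because Gpsm1 was deleted in Treg cells, the receptors OX40 (Tnfrsf4), GITR (Tnfrsf18) and 4-1BB (Tnfrsf9) were compared within T-cell-like nuclei by Treg genes. Only 66 of 2474 T-cell-like nuclei had a UMI of Foxp3, the Treg lineage factor. Pooled over the libraries, Tnfrsf4 was at 219 CPM in them (95% exact Poisson interval 148 to 313, counting error only) and 39.1 CPM in the other T-cell-like nuclei, Tnfrsf18 at 190 (124 to 279) against 42.2, and Tnfrsf9 at 51.2 (20.6 to 105) against 25.2. Over libraries the mean difference did not pass an exact two-sided sign-flip permutation test adjusted over the 3 receptors: 196 CPM for Tnfrsf4 (higher in 4 of 6 libraries, adjusted p = 0.281), 164 CPM for Tnfrsf18 (4 of 6, adjusted p = 0.281) and 8.99 CPM for Tnfrsf9 (2 of 6, adjusted p = 0.688). Single libraries weighed on these means: Tnfrsf4 was at 62.9 CPM without knockout 2, and Tnfrsf18 at 107 CPM without control 2.

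T-cell-like nuclei with a UMI of at least 2 of Foxp3, Ikzf2, Il2ra, Ctla4, Capg and Icos, here called positive, gave denser sums. Il2ra, Ctla4, Icos and Ikzf2 are among the leading genes of the T-cell-like cluster led by Cd163l1 and Il23r, which held 477 of the 530 positive nuclei and 369 of the 1944 others. Being positive therefore follows that cluster closely and does not define Treg cells. Tnfrsf4 was then at 108.6, 102.7 and 52.0 CPM in the positive nuclei of control 1, 2 and 3 and at 152.3, 157.9 and 126.9 CPM in those of knockout 1, 2 and 3. In the other T-cell-like nuclei it was at 19.8, 44.9 and 10.7 CPM and at 13.6, 23.9 and 15.5 CPM, so it was higher in the positive nuclei of every library. The mean difference was 95.3 ± 40.03 CPM (SD, n = 6, exact permutation p = 0.03125, the smallest that 6 libraries can give, adjusted p = 0.0469). Tnfrsf18 was at 81.4, 154.0 and 52.0 against 26.4, 22.5 and 32.2 CPM in the controls against at 91.4, 157.9 and 74.8 against 29.8, 31.1 and 39.8 CPM in the knockouts. It too was higher in all 6 libraries, by 71.6 ± 47.0 CPM (exact permutation adjusted p = 0.0469). Tnfrsf9 was higher in 5 of 6, by 20.2 CPM (exact permutation p = 0.0625). In the Cd163l1 and Il23r cluster as a whole Tnfrsf4 was at 105.0 and Tnfrsf18 at 85.0 CPM, against 11.7 and 25.8 CPM in the other T-cell-like cluster. Within the Cd163l1 and Il23r cluster alone, a comparison chosen after seeing the data, no receptor passed: the difference was 83.0 CPM for Tnfrsf4 (higher in 6 of 6 libraries, exact permutation adjusted p = 0.0938), 47.0 CPM for Tnfrsf18 (5 of 6, adjusted p = 0.234) and 1.34 CPM for Tnfrsf9 (3 of 6, adjusted p = 0.813).

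**Figure D2:**
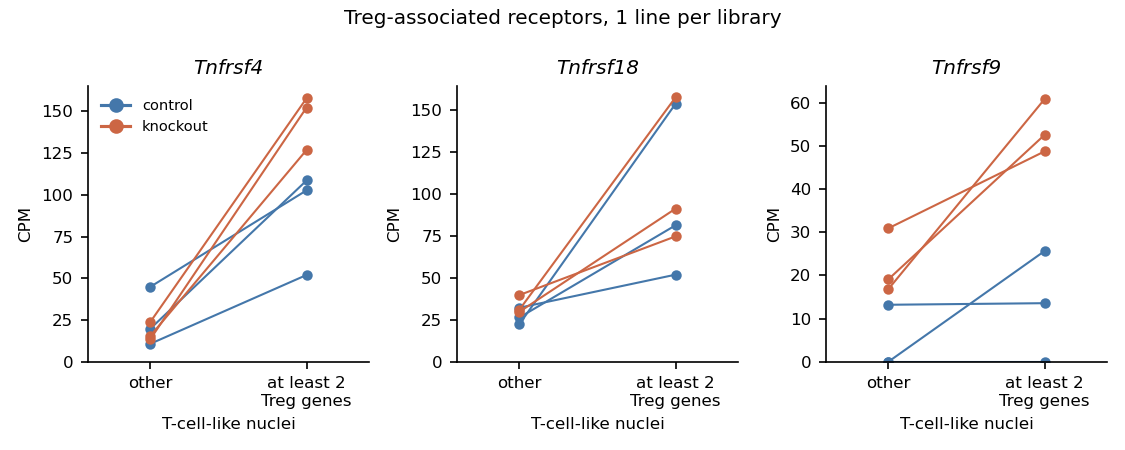
Levels (CPM) of Tnfrsf4, Tnfrsf18 and Tnfrsf9 in T-cell-like nuclei with at least 2 of 6 Treg genes and in the other T-cell-like nuclei, with 1 line per library. All 6 lines slope upward for Tnfrsf4 and Tnfrsf18, by 95.3 and 71.6 CPM on average, and 5 of 6 do for Tnfrsf9.

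Comparing genotypes in whole-tissue sums, no member passed an adjusted p of 0.05 in edgeR (0 of 37 tested), and 8 of 19310 genes did (0.0414%). At an unadjusted p under 0.05 there were 21 members, against 28.3% of all genes. The count depended on the tool: DESeq2 called 15 members, 13 higher and 2 lower, where it called 15.9% of its genes, and edgeR without knockout 2 also called 15, where it called 17.3%. With no filter on low counts edgeR called 1, Tnfrsf18 (0.977% of genes), and with the replicate number as a block 9 (5.89%). All 3 knockouts were above all 3 controls for 16 members (25.5% of all genes) and below for 5 (10.8%). The median log2 difference, knockout over control as throughout, was 0.29 over the members and 0.01 over all genes. In such sums fewer cells of a type and less RNA per cell cannot be told apart.

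The largest differences were those of members that led in lymphocyte or lymphoid stroma nuclei and of Tnfrsf19. Among them Tnfsf11, Tnfsf14 and Tnfrsf19 passed the filter on low counts only through the knockouts, where they are high. Their values are given as a description. Tnfsf11 was at 0.228, 0.103 and 0.833 CPM in the controls against 8.83, 1.39 and 4.39 CPM in the knockouts (log2 3.59 ± 0.93, SE, adjusted p = 0.0744). Tnfrsf13c was at 0.725, 0.412 and 4.07 against 29.0, 8.01 and 19.4 CPM (3.38 ± 0.91, adjusted p = 0.0783). Tnfsf8 was at 0.911, 0.617 and 1.98 against 18.2, 3.28 and 16.2 CPM (3.35 ± 0.75, adjusted p = 0.0632). In all of these the groups did not overlap, control 3 was the highest control and knockout 2 the lowest knockout. Cd40lg (2.91 ± 0.75, adjusted p = 0.0735) and Tnfsf14, the ligand LIGHT (2.12 ± 0.42, adjusted p = 0.0614), were also separated without overlap. Tnfrsf19 was at 0.0828, 0.144 and 1.0045 against 1.62, 2.02 and 1.58 CPM (2.02 ± 0.83, adjusted p = 0.173), with no overlap. Skeletal muscle-like nuclei, where its level was highest, numbered 0, 0 and 155 in the controls against 0, 71 and 1 in the knockouts, and held 38.5% of its 52 UMIs and 23.2% of its 177. Cd40 was at 5.78, 6.30 and 9.38 against 41.8, 14.4 and 25.9 CPM (1.85 ± 0.41, adjusted p = 0.0632), and Tnfrsf18 at 1.26, 1.11 and 1.08 against 6.22, 2.71 and 4.67 CPM (1.89 ± 0.32, adjusted p = 0.0599). Tnf was at 1.99, 2.28 and 1.86 against 3.92, 3.04 and 3.58 CPM (0.69 ± 0.18, adjusted p = 0.0749). Smaller values were found for Tnfrsf4 (1.18 ± 0.35, adjusted p = 0.0922), Tnfsf13b (0.50 ± 0.11, adjusted p = 0.0632) and Tnfrsf9 (0.29 ± 0.38, adjusted p = 0.668).

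Markers of these cell types moved with the groups. The summed B cell markers were at 75.5 to 400 CPM in the controls against 612 to 2421 CPM in the knockouts, the T cell markers at 21.4 to 55.7 and 108 to 459 CPM, and the lymphoid stroma markers at 2.88 to 7.77 and 26.7 to 82.0 CPM. The share of a member's UMIs in B-cell-like, T-cell-like and NK-cell-like nuclei also differed between the groups: 13.4% in the controls against 55.6% in the knockouts for Cd27, 18.1 and 55.4% for Cd40, 27.7 and 69.6% for Tnfrsf13b, and 9.19 and 54.6% for Tnf. For Tnf, macrophage-like nuclei gave 55.8% of 283 UMIs in the controls against 17.8% of 359 in the knockouts.

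A few receptors gave lower values in the knockouts. Fas was at 93.7, 105.3 and 87.9 CPM in the controls against 72.8, 78.9 and 68.2 CPM in the knockouts (-0.47 ± 0.10, adjusted p = 0.0614), with all knockouts below all controls. Adipocyte-like nuclei held 82.5% of its UMIs in the controls against 68.6% in the knockouts. Tnfrsf11a was at 62.6, 53.9 and 48.1 against 40.9, 42.7 and 31.6 CPM (-0.60, adjusted p = 0.0678), while the summed macrophage markers were at 976 to 1328 and 756 to 1066 CPM. Tnfrsf21 (-0.31 ± 0.11, adjusted p = 0.131), Tnfrsf1a (-0.16, adjusted p = 0.459), Tnfrsf1b (-0.17, adjusted p = 0.481) and Tnfrsf11b (-0.12, adjusted p = 0.902) gave smaller values.

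**Figure D3:**
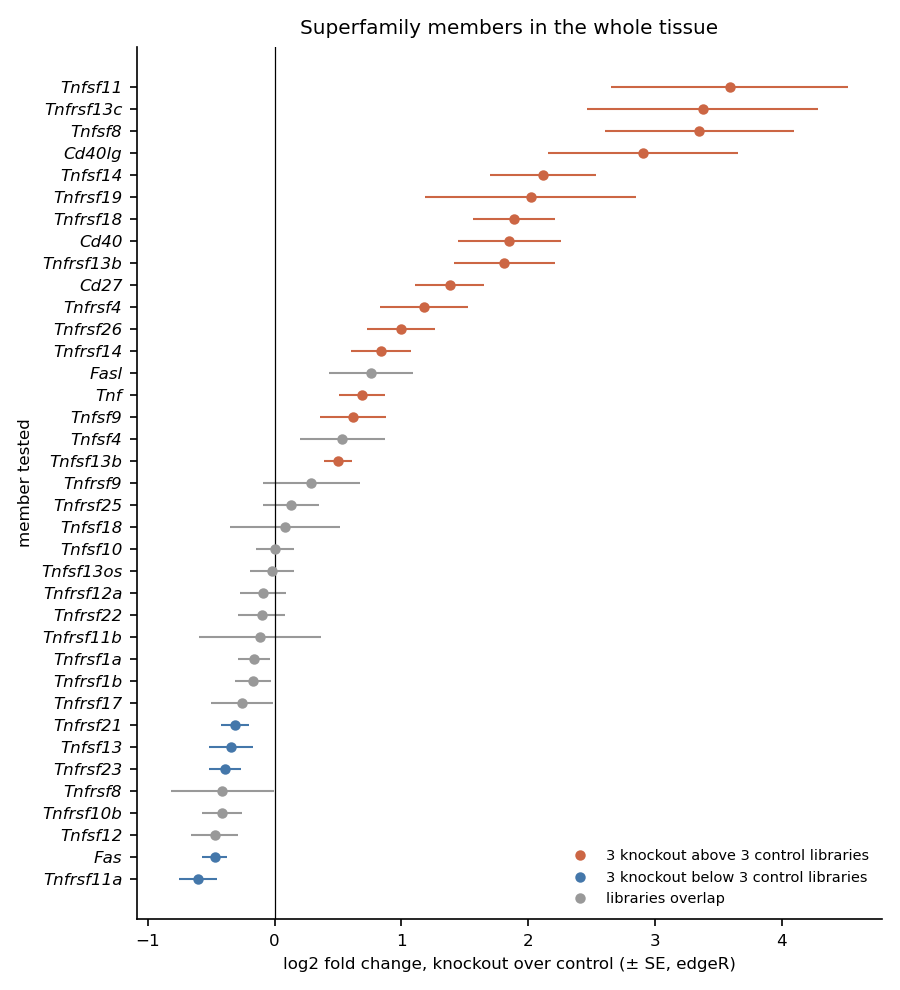
Log2 fold change (knockout over control, ± SE, edgeR) of the 37 members tested in whole-tissue sums. Red points are the 16 members whose 3 knockouts were above the 3 controls and blue points the 5 below, and Tnfsf11, Tnfrsf13c and Tnfsf8 lie farthest to the right at 3.59, 3.38 and 3.35.

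Summing only adipocyte-like, ASPC-like, endothelial-like, mural-like and macrophage-like nuclei gave other values for the lymphocyte members. Of 32 members tested none passed in edgeR (0 of 32, where 0.655% of 18318 genes did), 9 were at an unadjusted p under 0.05 (20.4% of all genes), 4 had all knockouts above (16.2% of all genes) and 5 all below (10.8%). The median was -0.05, and 0.01 over all genes. Cd40 was at a log2 difference of 0.29 in place of 1.85, and Cd27 at 0.40 in place of 1.38. Tnfrsf18 was at 0.81 in place of 1.89, and Tnf at -0.49 in place of 0.69. Tnfrsf13c was still at 2.003 ± 1.07 (SE) in place of 3.38, and Tnfsf8 at 0.97 ± 0.92 in place of 3.35. The groups overlapped for both Tnfrsf13c and Tnfsf8 in these sums. Tnfrsf11a (-0.69, adjusted p = 0.0561), Tnfrsf21 (-0.36, adjusted p = 0.068) and Fas (-0.29, adjusted p = 0.128) kept a negative sign.

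In T-cell-like nuclei the costimulatory receptor Cd27 rose in the knockouts. Tnfrsf9 also passed, but it entered the test only through the knockouts, so its call is given as a value and supports nothing. No other of the 13 members tested passed. These 2 calls stand beside 303 of 6436 genes called (4.71%), of which 100 were higher (1.55%). Cd27 lies on chromosome 6 (mm10, chr6:125232622-125237010, minus strand), and Tnfrsf9 on chromosome 4 (chr4:150914562-150946102, plus strand). The 250 bases before their RefSeq starts (GRCm38.p6) are shown because these genes and Tnfsf8 had calls in T-cell-like or NK-cell-like nuclei. For Tnfrsf9 this is a choice of gene alone and lends its calls no support. The bases before Tnfrsf13c are shown because it was the receptor most restricted to B-cell-like nuclei. Capitals mark matches to the RUNX core TGTGGT on either strand or to the NF-kB consensus. Tnfrsf9 has 2 starts, the second with 2 overlapping NF-kB matches.
Cd27, chr6:125237028-125237277, minus strand: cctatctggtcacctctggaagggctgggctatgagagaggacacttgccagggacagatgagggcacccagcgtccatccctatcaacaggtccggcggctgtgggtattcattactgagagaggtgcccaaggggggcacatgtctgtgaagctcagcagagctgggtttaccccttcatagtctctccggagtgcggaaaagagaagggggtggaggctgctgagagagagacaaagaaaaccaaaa
Tnfrsf9 first start, chr4:150919905-150920154, plus strand: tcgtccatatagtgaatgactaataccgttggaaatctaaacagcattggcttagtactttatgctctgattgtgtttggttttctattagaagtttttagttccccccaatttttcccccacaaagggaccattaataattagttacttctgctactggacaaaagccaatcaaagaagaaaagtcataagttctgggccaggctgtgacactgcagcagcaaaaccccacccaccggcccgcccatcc
Tnfrsf9 second start, chr4:150927749-150927998, plus strand: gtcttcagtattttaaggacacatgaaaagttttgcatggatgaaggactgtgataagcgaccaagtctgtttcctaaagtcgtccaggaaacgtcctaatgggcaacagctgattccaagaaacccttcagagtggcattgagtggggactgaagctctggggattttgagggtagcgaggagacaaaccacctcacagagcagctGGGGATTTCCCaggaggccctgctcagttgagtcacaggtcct
Tnfsf8, chr4:63861285-63861534, minus strand: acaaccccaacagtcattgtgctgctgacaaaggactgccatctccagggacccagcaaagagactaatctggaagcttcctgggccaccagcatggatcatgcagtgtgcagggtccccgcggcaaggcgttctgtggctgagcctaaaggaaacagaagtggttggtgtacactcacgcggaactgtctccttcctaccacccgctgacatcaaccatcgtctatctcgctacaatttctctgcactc
Tnfrsf13c, chr15:82224381-82224630, minus strand: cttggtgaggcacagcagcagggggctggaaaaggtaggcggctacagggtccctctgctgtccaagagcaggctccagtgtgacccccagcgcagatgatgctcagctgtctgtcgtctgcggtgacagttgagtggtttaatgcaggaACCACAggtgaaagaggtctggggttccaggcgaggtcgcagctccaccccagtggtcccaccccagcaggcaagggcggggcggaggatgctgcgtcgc
Of 32851 RefSeq windows of the same length, 14.0% hold the RUNX core and 3.90% the NF-kB consensus. Of the 32 starts of the 28 members found in RefSeq, 3 members (Tnfrsf25, Tnfsf13 and Tnfrsf13c) had the first and 2 (Tnfrsf8 and Tnfrsf9) the second. A match is a description of letters and not a binding site.

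Cd27 was at 186.6, 195.3 and 145.9 CPM in the T-cell-like nuclei of the controls against 303.6, 253.3 and 271.5 CPM in the knockouts, from 42, 25 and 44 against 608, 130 and 329 UMIs. All knockouts were above all controls (log2 0.71 ± 0.17, edgeR adjusted p = 0.0107). Tnfrsf9 was at 13.3, 7.8 and 0 against 27.0, 25.3 and 35.5 CPM. Its control values rest on 3, 1 and 0 UMIs, against 54, 13 and 43 in the knockouts (2.24 ± 0.65, edgeR adjusted p = 0.0387). The partners on the opposite strand gave 0.08 for Vamp1 (adjusted p = 0.930) and -0.10 for Camta1 (adjusted p = 0.887). Tnfsf8 was at 93.3, 148.4 and 132.6 against 193.2, 134.4 and 207.1 CPM, which overlap (0.59, adjusted p = 0.126). The Treg-associated Tnfrsf4 (0.12) and Tnfrsf18 (0.06), with Tnfrsf1a (-0.49), Tnfrsf1b (0.08) and Fas (0.57, adjusted p = 0.417), did not pass.

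Both calls had limits. Cd27 was not called without control 3 (0.58, adjusted p = 0.135) or without knockout 1 (0.61, adjusted p = 0.0722). Tnfrsf9 was not called with DESeq2 (2.26, adjusted p = 0.223), with doublets kept (0.82, adjusted p = 0.298), without control 2 (adjusted p = 0.0658) or without control 3 (1.403, adjusted p = 0.292) or with the replicate block (2.24, adjusted p = 0.0894), and it was too low to be tested when any 1 knockout was left out. The class also differed in makeup: its cluster led by Lef1 and Tcf7, genes of naive T cells, was 41.3, 39.3 and 50.7% of the control and 71.9, 64.4 and 68.6% of the knockout T-cell-like nuclei. The remainder was a cluster led by Cd163l1, Il23r, Ctla4 and Icos.

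Within these clusters no member passed (edgeR, 0 of 6 and 0 of 11 tested, where 0.862 and 3.33% of all genes did). At an unadjusted p under 0.05 there were 2 and 5 members, beside 9.61 and 14.8% of all genes. In the Lef1 and Tcf7 cluster Cd27 was at 237, 325 and 182 against 330, 310 and 319 CPM (0.47, adjusted p = 0.416). In the Il23r and Icos cluster it was at 151, 106 and 113 against 241, 152 and 180 CPM, with all knockouts above (0.65, adjusted p = 0.209). In the latter Tnfrsf9 was at 15.1, 13.2 and 0 against 61.1, 54.2 and 60.7 CPM and Tnfrsf4 at 68.0, 79.3 and 50.3 against 127.4, 102.9 and 111.7 CPM. The groups did not overlap for either receptor, and 4 of the 11 members, and 10% of all genes, had all knockouts above all controls there.

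In NK-cell-like nuclei, whose cluster met 8 of 8 T cell markers and 7 of 7 NK markers, Tnfsf8 was higher in the knockouts. Tnfrsf9 also passed, as lower, but it entered the test only through the controls, so its call is given as a value and supports nothing. These were 2 of 7 members tested, where 178 of 4181 genes were called (4.26%). Tnfsf8 was at 75.5, 53.3 and 70.6 CPM in the controls, from 17, 5 and 7 UMIs, and at 260.6, 151.9 and 210.2 CPM in the knockouts, from 129, 24 and 71 UMIs. All knockouts were above all controls (1.62 ± 0.31, edgeR adjusted p = 0.00633). Tnfrsf9 was at 128.8, 202.4 and 70.6 against 20.2, 63.3 and 41.4 CPM, from 29, 19 and 7 against 10, 10 and 14 UMIs, with all knockouts below (-1.89 ± 0.42, edgeR adjusted p = 0.0145). Cd27 was at 182, 160 and 50.5 against 273, 266 and 201 CPM (0.78, adjusted p = 0.184). Fasl (-1.33, adjusted p = 0.0795), Tnfrsf26 (1.46, adjusted p = 0.116) and Tnfrsf1b (-0.57) did not pass. The difference between the genotype effects of both classes was tested as an interaction: for Tnfrsf9 the effect in NK-cell-like nuclei minus that in T-cell-like nuclei was -3.94 ± 0.72 (edgeR adjusted p = 2.95e-04, where 1.28% of 6105 genes passed). The Tnfrsf9 effect in T-cell-like nuclei rests on 4 control UMIs in all and on knockouts that alone let it pass the filter. Its effect in NK-cell-like nuclei rests on controls that alone let it pass there, so that difference is given as a value. It was 0.996 for Tnfsf8 (adjusted p = 0.219) and 0.17 for Cd27 (adjusted p = 0.915).

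Markers of both cell types moved with these results. In NK-cell-like nuclei the summed T cell markers were at 1100 to 1918 CPM in the controls against 3202 to 4210 CPM in the knockouts. The NK markers were at 4511 to 9726 and 2241 to 4967 CPM. In knockout 1 and 3 the T cell markers, at 3793 and 4210 CPM, were above the NK markers, at 2254 and 2241 CPM. In knockout 2 and in every control they were below the NK markers. Tnfrsf9 led in NK-cell-like nuclei. Tnfsf8 was higher in T-cell-like than in NK-cell-like nuclei in every control and lower in every knockout. The part of the marker shift in both calls was not tested. No member was called in NK-cell-like nuclei when doublets were kept, when classes were set by marker score, when members were allowed among the clustering genes or without knockout 1. With members allowed for clustering 0 genes of any kind were called in this class.

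**Figure D4:**
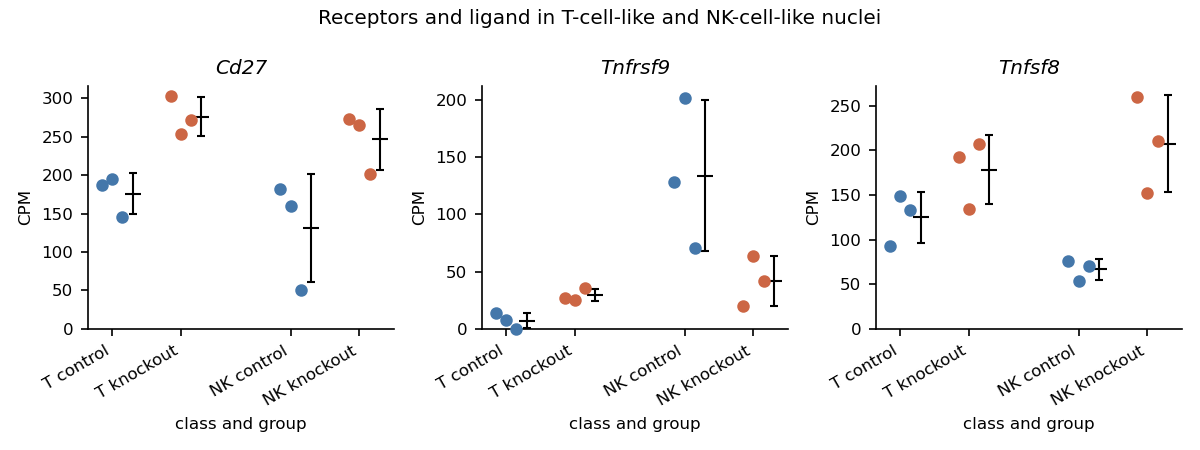
Levels (CPM) of Cd27, Tnfrsf9 and Tnfsf8 in T-cell-like and NK-cell-like nuclei of each library, with the mean and SD of each group. Tnfrsf9 in knockouts lies above the controls in T-cell-like nuclei (25.3 to 35.5 against 0 to 13.3) and below them in NK-cell-like nuclei (20.2 to 63.3 against 70.6 to 202.4).

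In macrophage-like nuclei no member passed in edgeR (0 of 20, where 58 of 12171 genes did, 0.477%). At an unadjusted p under 0.05 there were 3 members (14.2% of all genes), and DESeq2 called 1, Cd40. Cd40 was at 23.3, 36.3 and 27.7 CPM in the controls against 64.1, 50.2 and 38.9 CPM in the knockouts, with all knockouts above (0.81 ± 0.21, edgeR adjusted p = 0.108, DESeq2 adjusted p = 0.0314). Without control 2 it was also called in edgeR (adjusted p = 0.0440). Tnfrsf11a was at 367, 387 and 388 against 340, 323 and 278 CPM, with all knockouts below (-0.26 ± 0.10, adjusted p = 0.254). Tnfrsf22 (0.52), Tnfrsf1a (0.35 ± 0.13, adjusted p = 0.243), Tnf (-0.20), Tnfrsf1b (-0.03), Tnfsf13b (0.00), Fas (0.13) and Tnfrsf21 (0.13) did not pass.

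The macrophage-like class also differed in makeup and in foreign markers. Its Cd163 and Mrc1 cluster was 62.6% of the control and 82.1% of the knockout nuclei of the class, and its Trem2 and Gpnmb cluster 32.3 and 15.7%. Fitted alone, neither cluster gave a member that passed in edgeR: 0 of 16 in the first (0% of all genes) and 0 of 13 in the second (0.0745%), with 1 and 0 at an unadjusted p under 0.05 (6.35 and 6.22%). In the Cd163 and Mrc1 cluster Cd40 was at 37.8, 49.6 and 41.1 against 79.0, 66.1 and 47.6 CPM, which overlap (0.56, adjusted p = 0.577), and Tnfrsf11a at 210.3, 273.0 and 253.4 against 300.8, 256.6 and 234.7 CPM (0.10, adjusted p = 0.967). In the Trem2 and Gpnmb cluster Cd40 was at 10.5, 17.0 and 13.4 against 6.6, 19.3 and 0 CPM (-0.19, adjusted p = 0.995). The third and smallest cluster of the class, 5.08% of the control and 2.19% of the knockout nuclei, was not fitted. Thus Cd40 overlapped between the groups in both clusters fitted, and Tnfrsf11a reversed its sign in the Cd163 and Mrc1 cluster. B cell markers in macrophage-like nuclei were at 273 to 315 CPM in the controls against 327 to 633 CPM in the knockouts, and dendritic cell markers at 58.2 to 62.7 and 71.0 to 101 CPM. Their part in the Cd40 values was not tested.

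**Figure D5:**
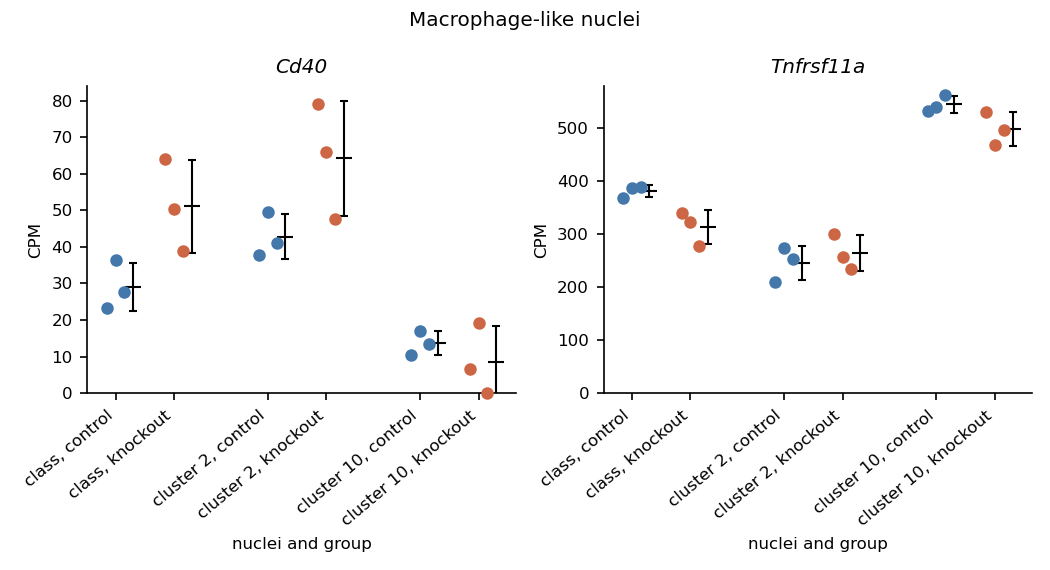
Levels (CPM) of Cd40 and Tnfrsf11a in each library for the whole macrophage-like class, for its Cd163 and Mrc1 cluster (cluster 2) and for its Trem2 and Gpnmb cluster (cluster 10), with the mean and SD of each group. Cd40 is separated in the class (23.3 to 36.3 against 38.9 to 64.1) and overlaps within both clusters shown.

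In adipocyte-like nuclei no member passed in edgeR or DESeq2 (0 of 22 in edgeR, where 0.141% of 16264 genes did, with 5 members, and 17.8% of all genes, at an unadjusted p under 0.05). Fas was at 130.3, 136.7 and 111.9 CPM in the controls against 112.3, 111.8 and 89.8 CPM in the knockouts, which overlap (-0.32 ± 0.13, edgeR adjusted p = 0.279). All knockouts were above all controls for 3 members (15.5% of all genes): Tnfrsf18 at 0.676, 0.698 and 0.647 against 1.23, 1.52 and 1.49 CPM (1.02 ± 0.26, adjusted p = 0.147), Cd27 at 11.9, 9.99 and 8.45 against 13.4, 14.2 and 15.4 CPM (0.45, adjusted p = 0.239), and Tnfrsf12a (0.30). They were below for Tnfrsf23 alone, at 3.92, 3.87 and 3.88 against 3.428, 2.596 and 2.622 CPM (-0.48, adjusted p = 0.252, 9.57% of all genes). Tnfrsf21 (-0.62, adjusted p = 0.244), Tnfrsf1a (0.01), Tnfrsf1b (-0.32), Tnfsf13b (0.34), Tnfrsf4 (0.19), Tnfrsf9 (-0.44) and Cd40 (-0.63) gave no call. The class differed in makeup: its cluster led by Pck1, Nrg4 and Cfd was 10.3% of the pooled control and 43.0% of the pooled knockout adipocyte-like nuclei, with every knockout above every control, and its part in these values was not tested. Summed T cell markers in adipocyte-like nuclei were at 3.77 to 17.8 and 4.40 to 16.6 CPM, so those of the groups overlapped.

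In ASPC-like nuclei none of 21 members passed in edgeR or DESeq2, where 0.436% of 13747 genes did in edgeR, and 3 were at an unadjusted p under 0.05 (11.3% of all genes). Tnfrsf11a was at 4.08, 1.77 and 3.41 CPM in the controls against 1.07, 1.15 and 0.340 CPM in the knockouts, with all knockouts below (-1.86 ± 0.51, adjusted p = 0.178), and without the filter on low counts it was called (adjusted p = 0.0135). The summed macrophage markers in the same nuclei were at 90.2 to 140 CPM in the controls against 49.2 to 66.1 CPM in the knockouts, and their part in it was not tested. Tnfsf13b was at 30.1, 26.6 and 24.3 against 31.2, 37.0 and 25.8 CPM (0.19), which overlap. Cd27 (0.58, adjusted p = 0.402), Fas (-0.29, adjusted p = 0.332), Tnfrsf11b (-0.34), Tnfrsf21 (-0.35), Tnfrsf1a (0.14), Tnfrsf1b (0.04), Cd40 (0.86) and Tnfrsf4 (0.29) did not pass.

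Endothelial-like and B-cell-like nuclei gave no call with either tool. In endothelial-like nuclei 0 of 15 members passed in edgeR (0.105% of 10487 genes), and 0 were at an unadjusted p under 0.05 (8.21% of all genes). All knockouts were above for Tnfrsf26 (0.44) and Tnfrsf12a (0.35), 2 members beside 7.67% of all genes, and below for Tnfrsf1b (-0.34) and Tnfsf12 (-0.26), beside 6.06%. Tnfrsf1a (0.23), Cd40 (0.50), Fas (0.38) and Tnfrsf21 (0.44) overlapped. In B-cell-like nuclei 0 of 10 passed in edgeR (0.204% of 9296 genes), and 1, Cd27, was at an unadjusted p under 0.05 (9.4% of all genes). Tnfrsf13c was at 110.9, 133.4 and 113.5 CPM in the controls against 153.3, 154.5 and 125.8 CPM in the knockouts, which overlap (0.32, adjusted p = 0.586). Cd40 was at 133.9, 89.0 and 140.0 against 158.7, 161.8 and 125.1 CPM (0.20). Tnf (0.61), Tnfrsf1b (-0.26), Tnfrsf18 (0.33) and Fas (0.79) did not pass. Tnfrsf13c and Cd40, separated between the groups in whole-tissue sums, thus overlapped within B-cell-like nuclei.

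The smaller myeloid and mural classes had few members to test. In dendritic-cell-like nuclei 0 of 5 members passed in edgeR or DESeq2 (0% of 4183 genes in edgeR). Cd40 was at 81.6, 97.1 and 88.0 CPM in the controls against 327.7, 21.8 and 297.6 CPM in the knockouts (1.47, adjusted p = 0.564). The share of the Ccl22 and Fscn1 cluster in this class was likewise lowest in knockout 2, at 21.1, 25.0 and 22.0% in the controls against 52.7, 5.1 and 61.3% in the knockouts. Without knockout 2, Cd40, Tnfrsf1b and Tnfrsf4 were called, where 10.8% of 4829 genes were. The controls alone would not have let Tnfrsf4 pass the filter on low counts, so its call is given as a value and supports nothing. Tnfrsf1b (0.94), Fas (0.34) and Tnfrsf21 (-0.92) did not pass with all libraries. In monocyte-like nuclei 0 of 3 members passed (0% of 3212 genes), with Tnfrsf21 at -0.29, Tnfrsf1a at 0.16 and Tnfrsf1b at 0.05. In mural-like nuclei 0 of 2 passed (0% of 5931 genes), with Tnfrsf1a at 0.45 and Tnfrsf21 at 0.22. At an unadjusted p under 0.05 there were 1 dendritic, 0 monocyte and 0 mural members, beside 8.77, 4.89 and 5.63% of all genes, and DESeq2 called 0 members in each of these classes.

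Genes that act with the superfamily were taken from lists of related superfamily genes outside the symbol rule, receptor adaptors and death machinery, NF-kB factors and regulators, sheddases, and genes induced by NF-kB and TNF. In whole-tissue sums 0 genes of each list passed in edgeR, of 9, 20, 20, 4 and 13 tested, with 7, 8, 11, 0 and 4 at an unadjusted p under 0.05, beside 28.3% of all genes. In T-cell-like nuclei 1 of 15 adaptor genes, 1 of 16 NF-kB genes and 2 of 3 related superfamily genes passed, 3 higher and 1 lower, beside 4.71% of all genes called and 1.55% called higher. Tank, an adaptor that binds TRAF proteins, rose from 208 ± 16 to 349 ± 36 CPM (0.75 ± 0.15, edgeR adjusted p = 0.00266). Rel, the NF-kB subunit of activated lymphocytes, rose from 58.4 ± 10 to 124 ± 11 CPM (1.04 ± 0.23, edgeR adjusted p = 0.00693). Ltb, which encodes lymphotoxin beta, rose from 232 ± 50 to 413 ± 104 CPM (0.83 ± 0.21, edgeR adjusted p = 0.0289). Edaradd, the adaptor of the EDA receptor, went from 53.2 ± 30 to 23.6 ± 6.9 CPM (-1.44 ± 0.37, edgeR adjusted p = 0.0182). The knockouts alone would not have let it pass the filter on low counts, so this call is given as a value and supports nothing. Ltb also rose in NK-cell-like nuclei (1.36 ± 0.36, edgeR adjusted p = 0.0451). In macrophage-like nuclei it went from 0.790 ± 0.14 to 5.72 ± 1.7 CPM (2.79 ± 0.43, edgeR adjusted p = 0.0252), beside the higher B cell markers given above. There it entered the test only through the knockouts, so this call is given as a value and supports nothing.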

How the data were processed

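The authors made the deposited UMI counts per gene and barcode with Cell Ranger 7.1, and builds mm10 and GRCh38 are named, per the submitters' processing notes. Every gene listed is a mouse gene. Use of introns and strand is not given in the sources used here. Kept nuclei had 500 genes or more and no more than 5% mitochondrial UMIs, and the highest Scrublet scores were removed at 0.8% per 1000 barcodes. Clusters (scanpy 1.11.5, 3000 variable genes without the members, 40 components, 20 neighbours, Leiden resolution 1 with leidenalg 0.10.2 and igraph 0.11.9) numbered 39. A class name needed at least 3 markers and 50% of its list at 2-fold or more over the other clusters with 5 CPM added, a rule settled after seeing the markers. Assignment of each nucleus by marker score gave the same class for 81.2%.

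Classes with 20 nuclei or more in every library were summed per library, and edgeR 4.0.16 (R 4.3.3) tested the summed UMI counts by its robust quasi-likelihood test after TMM scaling and filterByExpr, with Benjamini-Hochberg adjustment over all genes tested and a threshold of 0.05. DESeq2 1.42.0 was an alternative, and the others are given in the closing section. The script was tested on simulated data. Of the members, those past the threshold were named, then up to 5 with the largest changes among those without overlap, plus 12 set members. Tnfsf8 in T-cell-like nuclei, Tnfrsf11a, Fasl and Cd27 where not so named, and the single clusters were chosen after their values were seen. The members and lists were chosen with earlier results of these data known. Positions are from GENCODE vM21 (mm10) and sequences from RefSeq (GRCm38.p6).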

Additional observations from a re-analysis of the deposited data

Results flagged for a closer look

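For Tnfrsf9, which encodes 4-1BB, the fitted genotype effects in T-cell-like and NK-cell-like nuclei had opposite signs. The effect in NK-cell-like nuclei minus that in T-cell-like nuclei was -3.94 on the log2 scale (SE 0.72, edgeR adjusted p = 2.95e-04 in an interaction fit). It was the only member whose 3 knockouts lay above the 3 controls in one of the classes tested and below them in another. The control values in T-cell-like nuclei rest on 3, 1 and 0 UMIs, the gene entered the test in that class only through the knockouts, and it could not be tested there when any 1 knockout was left out. In NK-cell-like nuclei it entered the test only through the controls. The T cell markers in NK-cell-like nuclei were higher in all 3 knockouts. The part of these in the difference was not tested, so the value is given as a description.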

How the results depend on the processing

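Log2 fold changes of single members, named by the rule given with the processing, were recomputed in 1197 alternative fits over 83 results: 1085 kept their direction and their side of the threshold, 50 reversed, 21 lost a call and 41 gained one. Fits of single clusters, of the adipocyte-like class without the cluster mostly of control 3 and of the NK-cell-like, dendritic-cell-like, monocyte-like and mural-like classes were chosen after seeing the data.

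The whole-tissue count of members called, 0 in edgeR, was 15 with DESeq2, 1 with no filter on low counts and 9 with the replicate block. Leaving out 1 library at a time it ran from 0 to 15, the 15 without knockout 2. With the adipose classes alone the sign reversed for Tnf (-0.49), Tnfrsf1a (0.061), Tnfrsf9 (-0.33) and Tnfrsf11b (0.091). Tnfrsf11b ran from -0.41 to 0.55 and Tnfrsf1b from -0.27 to 0.0056 when 1 library was left out. In T-cell-like nuclei, against 2 members, 4 were called with no filter and 1 each with the replicate block, with doublets kept, with classes by marker score (Tnfrsf11a) and with members among the clustering genes, and 0 to 2 when 1 library was left out, 0 without control 3 and without knockout 1. Cd27 lost its call with classes by marker score (0.75, adjusted p = 0.0778), and Tnfrsf9 with those classes (1.27), with members among the clustering genes (1.401) and with the replicate block (2.24, adjusted p = 0.0894). Tnfrsf1b there was -0.089 in nuclei with at least 1000 genes and Fas -0.21 with classes by marker score. Leaving out 1 library gave -0.076 to 0.21 for Tnfrsf18, -0.22 to 0.34 for Tnfrsf4 and -0.21 to 0.58 for Tnfrsf1b.

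The macrophage-like count, 0 in edgeR, was 1 with DESeq2 and 1 with no filter, both Cd40, and 0 to 1 when 1 library was left out. Within single clusters Cd40 was -0.19 and Tnfrsf11a 0.10, and Tnfrsf1b was 0.0087 with classes by marker score. Tnfsf13b, at 0.00, was -0.0096 with no filter, -0.023 on library totals, -0.0042 with the block, -0.11 at 1000 genes, -0.041 with doublets kept and -0.011 at resolution 2. Without 1 library it ran from -0.11 to 0.15, Tnf from -0.84 to 0.15 and Tnfrsf1b from -0.059 to 0.019. The ASPC-like count was 1 with no filter (Tnfrsf11a). In that class Tnfrsf1b was -0.047 with classes by marker score and -0.021 to 0.14 without 1 library, where Tnfrsf11b ran from -0.60 to 0.18, Tnfrsf1a from -0.00087 to 0.28 and Tnfrsf4 from -0.081 to 0.44. In adipocyte-like nuclei Cd40 reversed with doublets kept (0.29), with classes by marker score (0.095) and without the cluster mostly of control 3 (0.50), and ran from -1.08 to 0.81 without 1 library, Tnfrsf1a from -0.050 to 0.11 and Tnfrsf4 from -0.16 to 0.51.

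In NK-cell-like nuclei, against 2 members, 1 was called with DESeq2 (Tnfsf8), 5 with no filter, 4 at 1000 genes, 0 with doublets kept, classes by marker score or members among the clustering genes, and 0 to 3 without 1 library. Over all genes these settings called 103, 376, 221, 1, 23 and 0. Cd27 was -0.025 with doublets kept. Tnfrsf9 lost its call without control 1 or 2 and without knockout 1 or 3 (-2.16 to -1.43), and Tnfsf8 without knockout 1 (1.398 to 1.77 over all 6). In dendritic-cell-like nuclei 1 member was called with no filter, 4 with doublets kept and 0 to 3 without 1 library, and Fas ran from -0.055 to 1.03. In monocyte-like nuclei Tnfrsf1a was -0.66 with classes by marker score and -0.0026 to 0.27 without 1 library, and Tnfrsf1b -0.036 with no filter, -0.48 by marker score and -0.066 to 0.16 without 1 library. Tnfrsf21 in mural-like nuclei was -0.13 with doublets kept. Of the class contrasts, T-cell-like against B-cell-like gave 25 members with no filter. Among the Treg-associated receptors nuclei with at least 2 of 6 Treg genes gave the calls of Tnfrsf4 (95.3 CPM) and Tnfrsf18 (71.6 CPM), neither of which passed within the Il23r cluster alone (83.0 and 47.0 CPM), and Tnfrsf9 ran from -3.82 to 16.0 CPM without 1 library with the Foxp3 definition. For all of these the cause was not tested.

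Replicate numbers 1 to 3 are shared by both groups, but same-numbered libraries correlated at only 0.164, 0.145 and 0.035 after removal of the group means, so they were not treated as pairs. The replicate block changed the counts to 9 members in whole-tissue sums and 1 in T-cell-like nuclei, and gave 3 in NK-cell-like nuclei and 0.024 for Tnfrsf11b in whole-tissue sums. At these depths, simulated log2 changes of 1 and 2 were recovered for 55.6 and 100% of changed genes in NK-cell-like nuclei (4107 genes) and for 64.5 and 100% in T-cell-like nuclei (6298 genes). The simulation gave all genes a common dispersion and all libraries the same mean profile, and it changed only genes past the filter. The real libraries differ in makeup, so these rates do not carry over to sparse members.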

Other observations

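Tnfsf13b, which encodes BAFF, came from several kinds of nuclei in both groups. ASPC-like nuclei held 49.4% of its 1090 UMIs in the controls against 43.4% of its 1207 UMIs in the knockouts, macrophage-like nuclei 22.7 and 9.36%, and lymphoid stroma-like nuclei 0.734 and 21.5%. B-cell-like, T-cell-like and NK-cell-like nuclei together held 0.642 and 3.73%. Its whole-tissue level was 8.68, 7.84 and 7.11 CPM in the controls against 12.1, 11.9 and 11.4 CPM in the knockouts, which do not overlap.

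Cd27 in the controls lay mostly outside lymphocytes by number of UMIs: adipocyte-like nuclei held 62.5% of 1392 UMIs and T-cell-like nuclei 7.97%. In the knockouts these shares were 24.8% and 37.5% of 2843 UMIs. Vamp1, on the opposite strand, was at 21.6 CPM in adipocyte-like nuclei of the controls and 25.1 CPM in those of the knockouts. Whether the adipocyte-like UMIs belong to Cd27 or to Vamp1 was not tested.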
